A study of Homo sapiens with 27 samples.

Results

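NKX2-1 siRNA 1 was set against NKX2-1 siRNA 2, a pair of reagents against the same mRNA, in SHP77 cells, which were derived from a human small cell lung cancer. The genes described averaged 50 or more normalized counts in the 4 NKX2-1 siRNA libraries, and number 13004 of the 34742 human genes in the table. All 13004 were among the 16750 genes tested. Cells were transfected with NKX2-1 siRNA 1 (n = 2), NKX2-1 siRNA 2 (n = 2) or si-control (n = 3) with the lipid reagent RNAiMAX, and their RNA was collected after 72 hours and sequenced from a poly(A) library. A normalized count is the number of read pairs assigned to a gene, divided by a size factor for the library. The si-control libraries serve as levels and take no part in the difference between the reagents. Together with the SOX2 siRNA libraries of the same table, they helped to estimate the spread and to choose the genes tested. All groups come from a single line and all were transfected, so cells without any siRNA are not part of the comparison. The replicates are described as biological with no word on separate cultures, so the p-values measure no more than how far these libraries scatter, and that scatter may be technical.

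NKX2-1 is a homeodomain transcription factor that directs lung and thyroid development and stays on in many small cell lung cancers, a tumour type in which many cells carry neuroendocrine features. A siRNA is a short RNA duplex with a strand that guides an Argonaute protein to a matching mRNA, which is then cut. It can also lower other mRNAs through pairing of its seed, so reagents that share a target need not share anything else. The comparison therefore asks which transcripts depend on the reagent used to lower NKX2-1.

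Recovered depth was 21.8 and 50.1 M reads with siRNA 1, 19.1 and 17.2 M with siRNA 2, and 15.5 to 17.9 M in si-control, where M stands for megareads. Mitochondrial genes took 7.40% and 7.16% of reads with siRNA 1, 8.75% and 7.93% with siRNA 2, and 9.95% to 10.3% in si-control. The neuroendocrine markers INSM1, CHGA, SYP, NCAM1, DLL3 and GRP were all members, while NEUROD1 and YAP1, which mark other small cell lung cancer types, had at most 2 reads in any of these libraries. Of 10 fibroblast markers, COL1A2, COL3A1, PDGFRB and THY1 had at most 2 reads in a library; of 11 blood and endothelial markers in the table, PTPRC, CD68, LYZ and TEK had at most 2 and KDR had 0 in all. The rest were detected, among them FAP, LUM, PDGFRA and PECAM1 as members. In normalized counts, CD14 had 31.1 and 32.7 with siRNA 1, 38.3 and 64.2 with siRNA 2, and 34.1 to 42.4 in si-control. POSTN had 40.6 and 28.2 with siRNA 1, 3.38 and 13.6 with siRNA 2, and 9.87 to 17.5 in si-control. COL1A1 had 2.83 and 10.2 with siRNA 1, 14.7 and 7.40 with siRNA 2, and 19.5 to 23.7 in si-control.

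The targeted mRNA was lower with either reagent than in si-control, and lower with siRNA 2 than with siRNA 1. NKX2-1 (ENSG00000136352.17; chromosome 14, 36516397 to 36520232, GRCh38.p14) had 959 and 1070.0 normalized counts with siRNA 1, 836 and 796 with siRNA 2, and 2199, 2357 and 2145 in si-control. The libraries of the reagents did not overlap, and every one of them lay below every si-control library. Means were 1014 ± 78.6 with siRNA 1, 816 ± 28.5 with siRNA 2 and 2234 ± 110.0 in si-control (SD, n = 2, 2 and 3), so that 45.4% of the si-control mean was left with siRNA 1 and 36.5% with siRNA 2. The log2 difference, siRNA 1 minus siRNA 2, was 0.31 ± 0.06 (SE), adjusted p = 0.000579 by limma. Every member below is thus compared at unequal NKX2-1 levels, and the share of a difference that goes with these levels was not tested.

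Genes that changed between the reagents were many, and most changed little. At an adjusted p under 0.05, 1877 members (14.4%) were higher with siRNA 1 and 2412 (18.5%) lower, against 11.7% higher and 14.8% lower among all 16750 genes tested. Of the 4289 called (33% of members), 3728 (86.9%) differed by under 1.5-fold. Without siRNA 2 replicate 2, 1230 members were higher. A difference of at least 2-fold was called for 26 members higher (0.2%) and 47 lower (0.361%), against 0.543% and 0.579% of all genes tested. The median difference over all members was -0.01 on the log2 scale, the median size 0.16, and the 95th percentile of the size 0.56. The split between directions depended on scaling: 43.8% of calls were higher with siRNA 1 on the deposited scale, 61.9% (2764 higher, 1700 lower) when libraries were scaled to equal totals, and 50.9% (2209 higher, 2127 lower) after quantile normalization. In all 4289 called members the libraries of the reagents did not overlap, which was also so for 67.1% of all members (31.2% with siRNA 1 higher, 36% with siRNA 1 lower) and 61.7% of all genes tested (29% and 32.6%). Of all genes tested, 26.5% were called in either direction. Differences below are on the log2 scale, siRNA 1 minus siRNA 2, while values per library and averages are normalized counts. Unless si-control is named, rose and fell mean higher and lower with siRNA 1 than with siRNA 2. SOX4, for example, is said to fall though either reagent lay above si-control, with averages of 4997 with siRNA 1, 6416 with siRNA 2 and 4422 in si-control. In bulk RNA, fewer cells of a kind and less RNA per cell cannot be told apart.

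**Figure D1:**
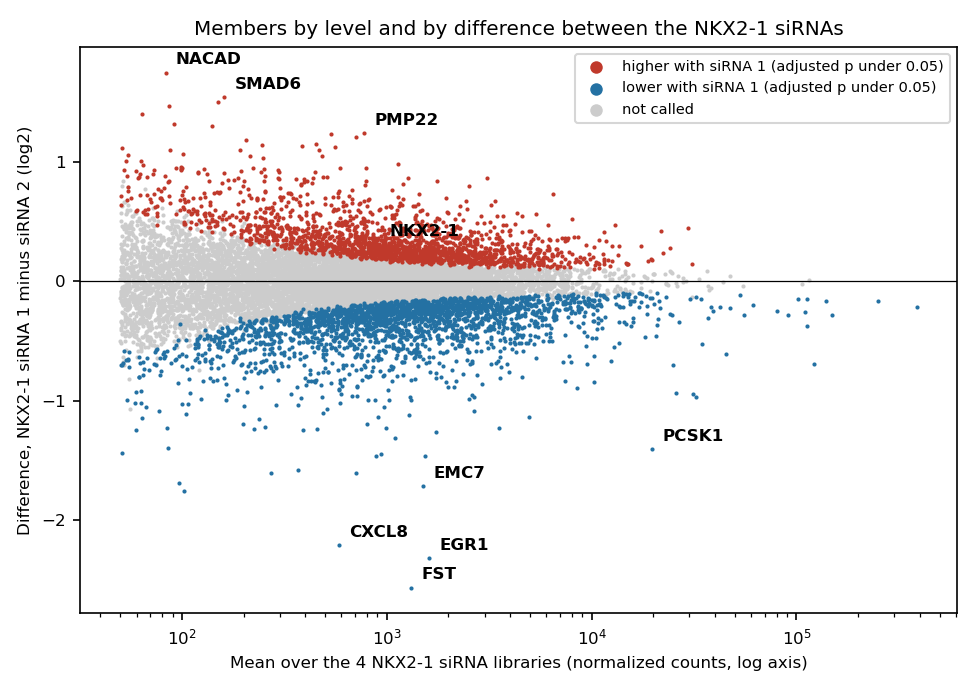
Each point is a member, by its mean over the 4 NKX2-1 siRNA libraries (normalized counts, log axis) and its difference, siRNA 1 minus siRNA 2 (log2); red points were higher and blue points lower with siRNA 1 at an adjusted p under 0.05. Most of the 1877 red and 2412 blue points lie close to 0, and FST, EGR1 and CXCL8 lie lowest.

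Calls were more frequent among abundant genes. With a mean between 50 and 100 normalized counts, 9.14% of 1247 members were called in either direction, and with 3000 or more 53.8% of 1421 were. The median size of the difference went the other way, at 0.22 in the lowest class and 0.13 in the highest. The members at the edge of the rule were SULT4A1 and LRRC46, with means of 50.01 and 50.05, and the genes left out next to them were TPTEP2 and BEAN1, with 49.97 and 49.98.

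The members with the largest falls with siRNA 1 included secreted regulators, a transcription factor and membrane proteins. FST (chromosome 5, 53480629 to 53487134, GRCh38.p14), which encodes follistatin, a secreted antagonist of activin, had 366 and 391 normalized counts with siRNA 1, 2242 and 2237 with siRNA 2, and 1391, 1383 and 1333 in si-control. Its si-control libraries lay between the reagents, and its difference was -2.56 ± 0.06 (SE), adjusted p = 6.66e-21. EGR1, a zinc finger transcription factor induced within minutes by growth factors, had 522 and 549.5 normalized counts with siRNA 1, 2751 and 2586 with siRNA 2, and 2529.6, 2423 and 2527 in si-control. It was low with siRNA 1 alone: siRNA 2 stayed close to si-control, just above its range, and the difference was -2.31 ± 0.07 (SE), adjusted p = 1.75e-19. CXCL8, the neutrophil chemokine interleukin 8, had 191 and 222 normalized counts with siRNA 1, 893 and 1019 with siRNA 2, and 2382, 2256 and 2468 in si-control. CXCL8 fell below si-control with either reagent and further with siRNA 1, with a difference of -2.21 ± 0.08 (SE), adjusted p = 1.32e-17.

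EMC7, a subunit of the complex that inserts proteins into the endoplasmic reticulum membrane, had 697 and 708 normalized counts with siRNA 1, 2307 and 2312 with siRNA 2, and 2204, 2113 and 2065 in si-control. Its siRNA 1 libraries lay far below si-control and its siRNA 2 libraries just above it, with a difference of -1.72 ± 0.05 (SE), adjusted p = 6.84e-19. SiRNA 1 also stood far below the other libraries for SPNS2, an exporter of sphingosine 1-phosphate, and for ATP6V0A4, a subunit of the proton pump of acidic compartments. SPNS2 had 433 and 508 with siRNA 1 against 1311 and 1279.8 with siRNA 2 (si-control 1293, 1243 and 1285), and ATP6V0A4 had 182 and 186 with siRNA 1 against 565 and 536 with siRNA 2 (si-control 568, 624 and 578). PECAM1, an adhesion protein of endothelium and platelets, had 128 and 139 with siRNA 1 against 414 and 404 with siRNA 2 (si-control 341, 333 and 327). Other endothelial markers were low, as VWF reached at most 32.1 and CDH5 at most 7.40 normalized counts in these libraries.

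PAPPA2, a protease of insulin-like growth factor binding proteins, moved with siRNA 2 instead, with 36.8 and 55.6 with siRNA 1 against 152 and 144 with siRNA 2 (si-control 44.9, 46.3 and 57.8). A2M, a plasma protease inhibitor, had 335 and 366 with siRNA 1 against 1075 and 1055 with siRNA 2 (si-control 573, 596 and 617), so the si-control level lay between the reagents. CFAP58-DT, a non-coding transcript divergent from CFAP58, had 46.2 and 45.8 with siRNA 1 against 172 and 143 with siRNA 2 (si-control 48.7, 71.9 and 64.8); whether counting used strand is not given in the sources used here, and its reads may belong in part to its neighbour. The log2 differences of these members were -1.46 for SPNS2, -1.58 for ATP6V0A4, -1.61 for PECAM1, -1.69 for PAPPA2, -1.60 for A2M and -1.75 for CFAP58-DT, with adjusted p-values from 2.48e-13 to 5.87e-05.

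The members with the largest rises with siRNA 1 were mostly low in count. NACAD, a relative of the nascent polypeptide-associated complex, had 130.2 and 126 normalized counts with siRNA 1, 32.7 and 43.2 with siRNA 2, and 37.4, 36.6 and 43.7 in si-control. SMAD6, an inhibitor of bone morphogenetic protein signalling, had 238 and 242 normalized counts with siRNA 1, 78.9 and 85.2 with siRNA 2, and 109, 67.0 and 84.6 in si-control. For either gene siRNA 1 stood above the other libraries and siRNA 2 did not stand apart from si-control; the differences were 1.74 ± 0.25 (SE), adjusted p = 5.49e-06 for NACAD and 1.54 ± 0.20 (SE), adjusted p = 1.27e-06 for SMAD6. PLEKHA2, a phosphoinositide-binding protein, had the same shape, with 221 and 181 with siRNA 1 against 86.8 and 75.3 with siRNA 2 (si-control 78.6, 89.0 and 84.6).

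CSF1, the macrophage colony-stimulating factor, had 127 and 128 normalized counts with siRNA 1, 45.1 and 45.7 with siRNA 2, and 99.8, 116 and 109.9 in si-control. Here siRNA 2 was the reagent that stood apart most, below si-control, while siRNA 1 lay above it, with a difference of 1.47 ± 0.19 (SE), adjusted p = 9.1e-07. FAM234A had 715 and 786 with siRNA 1 against 328 and 309 with siRNA 2 (si-control 700.1, 689 and 726), low with siRNA 2 only. PMP22, a protein of peripheral myelin, had 1081 and 1091 with siRNA 1 against 449.7 and 469 with siRNA 2 (si-control 489, 507 and 513), and its difference was 1.24 ± 0.07 (SE), adjusted p = 3.34e-13. NDUFC2, a subunit of respiratory complex I, had 139 and 124 with siRNA 1 against 55.2 and 49.4 with siRNA 2 (si-control 99.8, 91.4 and 73.3); a readthrough transcript with a neighbouring gene overlaps it, so its count is uncertain.

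MRAS, a Ras-family GTPase, and SHD, an SH2 domain adaptor, were above si-control with either reagent and further above it with siRNA 1. MRAS had 229 and 216 with siRNA 1 against 80.0 and 76.5 with siRNA 2 (si-control 49.9, 37.8 and 36.6) and SHD had 85.9 and 101 with siRNA 1 against 33.8 and 35.8 with siRNA 2 (si-control 16.2, 9.75 and 14.1). The difference of MRAS was 1.5 ± 0.42 (SE), adjusted p = 0.0081, and it lost its call when any of the 4 libraries was left out, with adjusted p-values of 0.0539 to 0.0673, and without a filter on low values (0.138). SHD lost its call without siRNA 1 replicate 2 (adjusted p = 0.0685) and without that filter (0.0609). SAMD11 had 906 and 1067 with siRNA 1 against 435 and 416 with siRNA 2 (si-control 393, 412 and 345), with a difference of 1.21 ± 0.10 (SE), adjusted p = 2.62e-10.

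**Figure D2:**
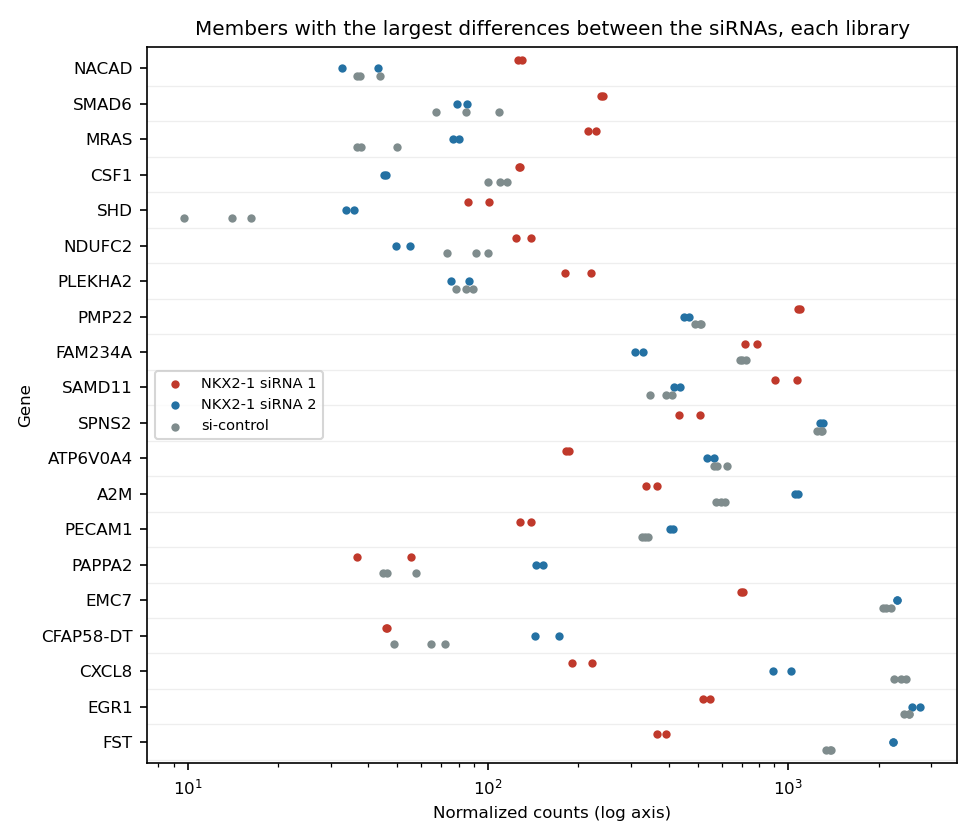
Normalized counts (log axis) of the 10 members that rose most and the 10 that fell most with NKX2-1 siRNA 1, where each point is a library of siRNA 1 (red), siRNA 2 (blue) or si-control (grey). Red and blue points do not overlap for any gene shown, and the grey points of FST, CSF1, A2M and NDUFC2 lie between them. So do those of EGR1, CFAP58-DT, EMC7, PECAM1 and PMP22.

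A reagent on its own could thus set a member apart from si-control, and this was counted over all members by asking whether both libraries of a siRNA lay beyond all 3 si-control libraries. Of the 1877 members higher with siRNA 1, the reagents lay beyond si-control on opposite sides for 426 (22.7%) and on the same side for 567 (30.2%). For 439 (23.4%) siRNA 1 alone lay beyond it, and for 420 (22.4%) siRNA 2 alone. Of the 2412 lower, these counts were 567 (23.5%), 768 (31.8%), 638 (26.5%) and 415 (17.2%). Members not called also held the same-side class (41.4%), siRNA 1 alone (16.1%) and siRNA 2 alone (15.9%), so these classes were not particular to called members. Of the members that differed at least 2-fold, 11 of 26 higher and 17 of 47 lower lay on opposite sides. The comparisons of each reagent with si-control share those libraries, and no test was made of the classes.

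**Figure D3:**
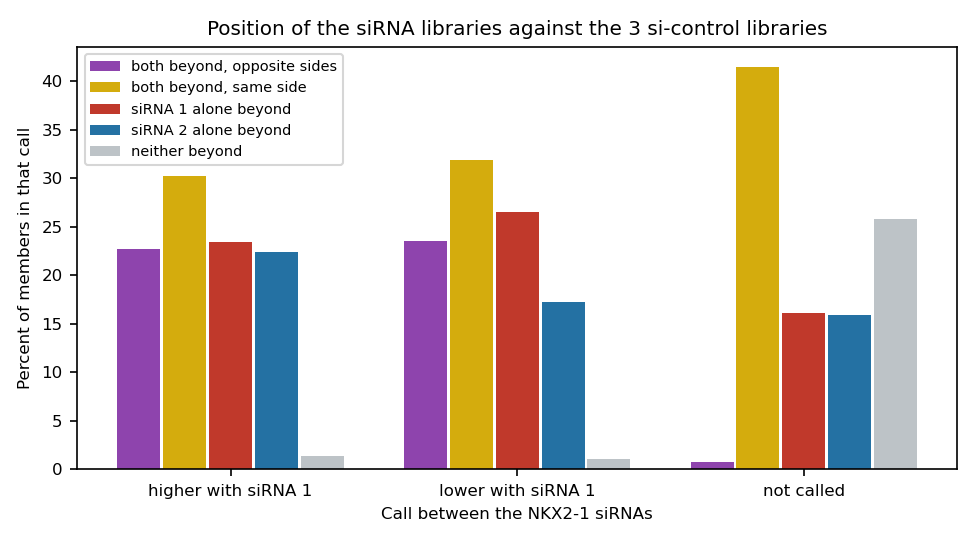
Bars give the percent of members in each call (higher with siRNA 1, lower with siRNA 1, not called) whose siRNA libraries lie beyond the range of the 3 si-control libraries on opposite sides, on the same side, with a single reagent, or with neither. Opposite sides hold 22.7% of the higher and 23.5% of the lower members. Members not called are drawn for completeness; their small share on opposite sides follows from the call, which uses the same difference.

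Other members past 2-fold, chosen after their values were seen, show either shape. HIPK3, a protein kinase, averaged 628 with siRNA 1 against 1559 with siRNA 2. AGR2, a protein disulfide isomerase of secretory cells, averaged 825 with siRNA 1 against 2260.3 with siRNA 2, and CACNA2D1, a calcium channel subunit, 3093 with siRNA 1 against 6791 with siRNA 2. Si-control lay between the reagents and nearer to siRNA 2 for HIPK3 (1254, 1258 and 1271), above either reagent for AGR2 (3282, 3378 and 3257) and close to siRNA 1 for CACNA2D1 (3047, 3033 and 2827). LAMA4, a basement membrane laminin chain, averaged 1025 with siRNA 1 against 2450.4 with siRNA 2, and both reagents lay above si-control (789.9, 810.4 and 832). TTPAL, a lipid-binding protein, averaged 769 with siRNA 1 against 353 with siRNA 2 and CEP20, a centrosomal protein, 651 with siRNA 1 against 316 with siRNA 2. For either of them siRNA 2 alone had both libraries below si-control (867, 777 and 859.8 for TTPAL and 705, 659 and 723 for CEP20). A single siRNA 1 library was also below that range for each, at 750 for TTPAL and 643 for CEP20. The differences were -1.31 for HIPK3, -1.46 for AGR2, -1.13 for CACNA2D1, -1.26 for LAMA4, 1.12 for TTPAL and 1.04 for CEP20.

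The promoters shown here belong to genes described in the following paragraphs, because the lists they come from fell with siRNA 1 in most members. Each is 300 bases, from 250 before to 50 after the gene's start in RefSeq's GRCh38.p14, printed 5′ to 3′ on the gene's strand. Capitals mark matches on either strand to the CArG box, the serum response factor motif (EGR1), to the endoplasmic reticulum stress response element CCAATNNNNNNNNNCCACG (HSPA5, HSP90B1, XBP1) or to the cyclic AMP response element TGACGTCA (PCSK1, VGF). These 3 motifs were chosen after the values were seen, and only promoters with a match are printed. The promoter of IER2, looked up for the CArG box, held 0 matches and is not printed.
EGR1, chr5:138465229-138465528, plus strand: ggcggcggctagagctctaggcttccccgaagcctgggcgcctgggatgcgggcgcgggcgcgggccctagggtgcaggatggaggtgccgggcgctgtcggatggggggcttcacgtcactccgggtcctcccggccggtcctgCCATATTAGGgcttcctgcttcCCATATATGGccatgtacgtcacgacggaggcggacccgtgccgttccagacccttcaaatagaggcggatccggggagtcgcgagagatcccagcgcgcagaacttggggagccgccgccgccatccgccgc
HSPA5, chr9:125241294-125241593, minus strand: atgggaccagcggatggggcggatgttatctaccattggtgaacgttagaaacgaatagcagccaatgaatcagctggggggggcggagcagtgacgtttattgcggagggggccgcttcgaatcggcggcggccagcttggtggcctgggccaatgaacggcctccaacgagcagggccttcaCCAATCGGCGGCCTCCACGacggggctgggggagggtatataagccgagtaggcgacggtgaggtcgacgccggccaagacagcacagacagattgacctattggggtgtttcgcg
HSP90B1, chr12:103930160-103930459, plus strand: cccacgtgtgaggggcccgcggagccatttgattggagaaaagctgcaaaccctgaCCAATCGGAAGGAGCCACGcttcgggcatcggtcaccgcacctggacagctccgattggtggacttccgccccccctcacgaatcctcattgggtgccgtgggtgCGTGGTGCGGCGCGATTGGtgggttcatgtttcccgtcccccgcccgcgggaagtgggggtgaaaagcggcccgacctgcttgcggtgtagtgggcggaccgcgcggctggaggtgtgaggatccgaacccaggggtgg
XBP1, chr22:28800520-28800819, minus strand: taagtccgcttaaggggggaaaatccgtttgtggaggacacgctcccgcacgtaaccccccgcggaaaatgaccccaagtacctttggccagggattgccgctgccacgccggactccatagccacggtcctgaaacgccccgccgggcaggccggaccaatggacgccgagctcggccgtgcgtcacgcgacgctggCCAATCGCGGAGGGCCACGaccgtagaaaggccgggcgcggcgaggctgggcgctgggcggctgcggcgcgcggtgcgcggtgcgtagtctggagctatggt
PCSK1, chr5:96433199-96433498, minus strand: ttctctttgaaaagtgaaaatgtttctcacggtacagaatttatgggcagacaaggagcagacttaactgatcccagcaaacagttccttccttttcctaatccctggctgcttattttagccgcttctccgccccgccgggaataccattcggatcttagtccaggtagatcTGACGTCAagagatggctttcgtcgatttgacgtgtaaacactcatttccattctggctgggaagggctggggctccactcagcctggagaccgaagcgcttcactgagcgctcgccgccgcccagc
VGF, chr7:101165520-101165819, minus strand: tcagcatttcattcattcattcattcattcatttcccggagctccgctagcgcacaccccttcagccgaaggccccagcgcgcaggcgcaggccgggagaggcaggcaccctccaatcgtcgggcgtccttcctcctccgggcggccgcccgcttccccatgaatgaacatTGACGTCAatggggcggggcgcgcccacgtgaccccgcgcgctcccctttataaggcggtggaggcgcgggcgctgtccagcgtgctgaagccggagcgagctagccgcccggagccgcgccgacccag

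A promoter was found for 10029 of the 13004 members. The stress response element was present in 15 of these (0.15%), in 10 of 1911 promoters of members lower with siRNA 1 (0.523%) and 1 of 1509 of members higher (0.0663%). In the unfolded protein response list, 6 of 19 promoters held it (31.6%): CALR, CANX, CRELD2, HSP90B1 with 2 matches, HSPA5 and XBP1. All 6 genes were lower with siRNA 1 and are among the 10, so these shares are not separate observations. The CArG box was present in 1.08% of all these promoters, and in EGR1 alone, with 2 matches, among 16 promoters of immediate early genes. The cyclic AMP response element was in 3.48% of all, 3.58% of higher and 3.77% of lower members. It was in 1 of 9 promoters of hormone genes (VGF), in 2 of 21 of neuroendocrine markers (PCSK1 and CHGA) and in 3 of 16 of immediate early genes, of which MAFF fell and DUSP1 and JUND rose with siRNA 1. CAAGTG, the core bound by NKX2-1, was in 7.62% of promoters of higher members, 9.16% of lower members and 8.43% of all. A match is a stretch of letters and not a measured site; the stress response element contains a CCAAT box, and the other motifs may overlap further elements.

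Most genes of a list of feedback regulators and targets of the ERK MAP kinase were lower with siRNA 1. Of 15 MAPK feedback genes, 12 fell (80%), 0 rose and 3 were not called, with a median difference of -0.24. For this and every later list, the shares to set beside the counts are those over all members, 14.4% higher and 18.5% lower. Some later lists lie near these shares, among them lineage transcription factors (15.4% higher, 23.1% lower) and the RNA interference machinery (18.8% and 25%). DUSP6, the phosphatase that switches off ERK, had 868 and 882 normalized counts with siRNA 1, 1735 and 1744 with siRNA 2, and 1409, 1427 and 1398 in si-control. SPRY1, an inhibitor of receptor tyrosine kinase signalling, had 863 and 892 normalized counts with siRNA 1, 1689.7 and 1745 with siRNA 2, and 983, 986 and 936 in si-control. Si-control lay between the reagents for DUSP6 and close to siRNA 1 for SPRY1, and the differences were -0.99 ± 0.06 (SE), adjusted p = 4e-13 and -0.97 ± 0.07 (SE), adjusted p = 8.27e-11. PHLDA1 had 1616 and 1521 with siRNA 1 against 2749 and 2851 with siRNA 2 (si-control 2346, 2441 and 2316), with si-control again in between. DUSP5, another ERK phosphatase, had 559.7 and 570.0 with siRNA 1 against 844 and 798 with siRNA 2 (si-control 1098, 1167 and 1085), so either reagent left it below si-control. ETV1, SPRED1 and CCND1 did not pass the test, at -0.11, -0.06 and 0.08. With libraries scaled to equal totals 8 of the 15 fell, and without siRNA 1 replicate 1 the count was 7.

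Immediate early genes, which the same signals induce directly, changed in both directions. Of 18 members, 13 fell and 4 rose, with a median of -0.35, and 8 fell without siRNA 2 replicate 1. Next to EGR1, whose promoter with 2 CArG boxes is printed above, FOS had 680.5 and 694 normalized counts with siRNA 1, 1388 and 1354 with siRNA 2, and 1089, 1119 and 1104 in si-control. FOS, a subunit of the AP-1 transcription factor, lay below si-control with siRNA 1 and above it with siRNA 2, and its difference was -0.99 ± 0.07 (SE), adjusted p = 6.75e-12. IER3 had 676 and 849 with siRNA 1 against 1306 and 1398 with siRNA 2 (si-control 1748, 1679 and 1779), and the orphan nuclear receptor NR4A2 had 716 and 691 with siRNA 1 against 1255 and 1179 with siRNA 2 (si-control 816, 698 and 822). The 4 that rose were KLF2, IER5, DUSP1 and JUND. KLF2, a zinc finger transcription factor, had 344 and 418 with siRNA 1 against 225 and 193 with siRNA 2 (si-control 359, 390.0 and 314), low with siRNA 2 alone. DUSP1, a phosphatase of stress-activated MAP kinases, had 1296 and 1344 with siRNA 1 against 942 and 1077 with siRNA 2 (si-control 1914, 1894 and 2080.4). Differences were 0.86, 0.33, 0.39 and 0.20 for these 4.

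NF-kB target genes gave 6 lower, 1 higher and 6 not called of 13, with a median of -0.05, which was 0.02 with equal totals. TNFAIP3, an inhibitor of NF-kB, had 126 and 117 normalized counts with siRNA 1, 266 and 290.0 with siRNA 2, and 303, 289 and 278 in si-control. Its siRNA 1 libraries lay below si-control and its siRNA 2 libraries near it, and the difference was -1.19 ± 0.13 (SE), adjusted p = 6.23e-08. CXCL2, NFKB2, RELB and ICAM1 were lower too, with differences of -0.56, -0.53, -0.49 and -0.37. TNFAIP2 rose, with 2360.4 and 2375 with siRNA 1 against 1554 and 1606 with siRNA 2 (si-control 2205, 2248 and 2180.4). The cytokine LIF was far below si-control with either reagent and did not pass between them, with 271 and 300.1 with siRNA 1 against 287 and 301 with siRNA 2 (si-control 1607, 1590.3 and 1588) and a difference of -0.05 (adjusted p = 0.723).

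**Figure D4:**
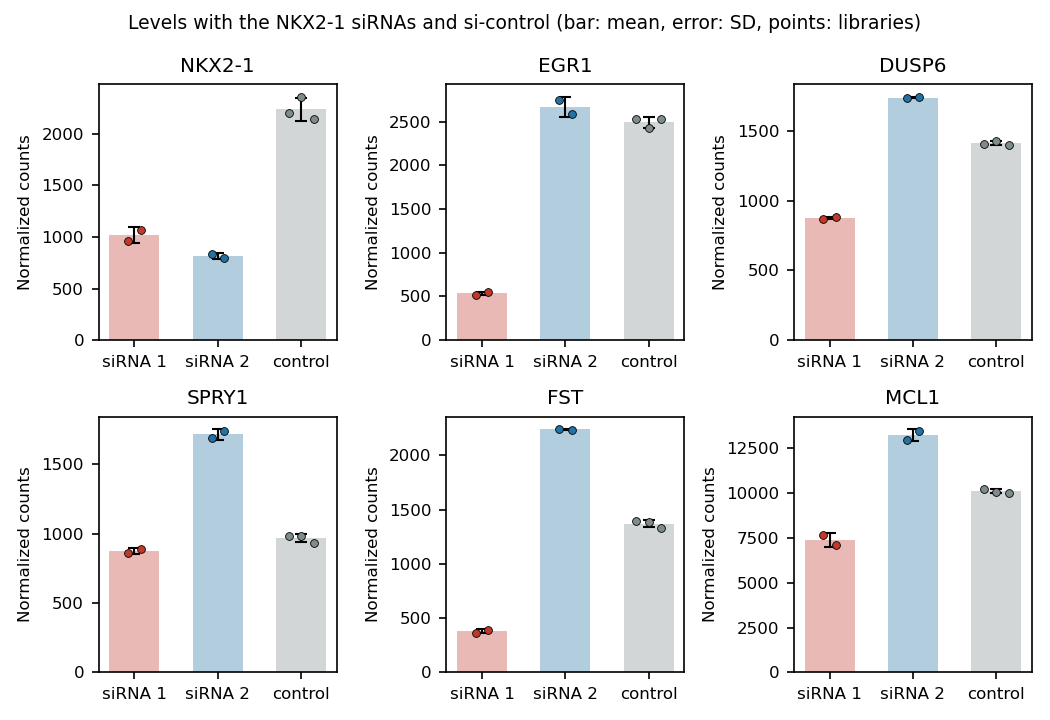
Normalized counts of NKX2-1, EGR1, DUSP6, SPRY1, FST and MCL1 with NKX2-1 siRNA 1, NKX2-1 siRNA 2 and si-control; bars are means, error bars SD and points libraries. NKX2-1 is below si-control with either reagent, whereas EGR1, DUSP6, SPRY1, FST and MCL1 are below it with siRNA 1 and above it with siRNA 2.

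Every measured gene of the unfolded protein response list was lower with siRNA 1. This response raises chaperones and folding enzymes of the endoplasmic reticulum when unfolded protein builds up there. All 20 of 20 fell, with a median of -0.36; the count was 17 with libraries scaled to equal totals and 19 after quantile normalization. XBP1, a transcription factor of the response, had 9669 and 9625 normalized counts with siRNA 1, 15152 and 15413 with siRNA 2, and 15669, 15715 and 15738 in si-control. Its siRNA 2 libraries lay just below si-control and its siRNA 1 libraries far below, with a difference of -0.66 ± 0.04 (SE), adjusted p = 5.96e-14. HSPA5, the chaperone BiP, had 24049.5 and 23124 normalized counts with siRNA 1, 29862 and 29949.8 with siRNA 2, and 32961, 33273 and 32828 in si-control, and HSP90B1, the chaperone GRP94, had 29767 and 26956 normalized counts with siRNA 1, 41256 and 40441 with siRNA 2, and 37576, 38090.4 and 37183 in si-control. Differences were -0.34 ± 0.03 (SE), adjusted p = 1.09e-08 for HSPA5 and -0.53 ± 0.04 (SE), adjusted p = 1.75e-10 for HSP90B1. The co-chaperone DNAJB9 had 300.1 and 300.1 with siRNA 1 against 444 and 468 with siRNA 2 (si-control 550.3, 564 and 584), and ERN1, the sensor that splices XBP1 mRNA, had 586 and 607 with siRNA 1 against 799 and 923 with siRNA 2 (si-control 774, 721 and 740.0). The smallest falls were those of CRELD2 (-0.15) and SEL1L (-0.17), for which, with PDIA4, either reagent averaged more than si-control. The integrated stress response, an arm of stress signalling through ATF4, gave 5 higher and 4 lower of 20, with a median of -0.02. SESN2 was higher with siRNA 1 (average 884) than with siRNA 2 (592), and either reagent lay below si-control (934). VLDLR was lower with siRNA 1 (521) than with siRNA 2 (733), and either reagent lay above si-control (442). ATF4 did not pass, at 0.07. The list had 8 rises with equal totals, 2 without a filter on low values, 3 without siRNA 1 replicate 2, and 2 and 1 without replicates 1 and 2 of siRNA 2.

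Most of the hormone precursor genes measured were lower with siRNA 1, as were PCSK1 and CPE, enzymes that process such precursors and come from the neuroendocrine list. Neuroendocrine cells cut such precursors in secretory granules before release. Of 10 neuropeptide and hormone genes, 7 fell and 0 rose, with a median of -0.47, and 7 fell whichever of the 4 libraries was left out. PCSK1, the prohormone convertase, had 11162 and 10569 normalized counts with siRNA 1, 28523 and 28911 with siRNA 2, and 45112, 44832 and 44799.8 in si-control. CPE, the carboxypeptidase that trims the products, had 17883 and 17729 normalized counts with siRNA 1, 33922 and 34149.5 with siRNA 2, and 28498, 28181 and 28688 in si-control. The order differed between them: PCSK1 was below si-control with either reagent, whereas CPE lay below with siRNA 1 and above with siRNA 2. Differences were -1.40 ± 0.04 (SE), adjusted p = 6.66e-21 for PCSK1 and -0.93 ± 0.03 (SE), adjusted p = 9.45e-18 for CPE. NTS, the neurotensin precursor, had 851 and 767 with siRNA 1 against 1717 and 1796 with siRNA 2 (si-control 2064, 2078 and 2096). CALCA, which encodes calcitonin and CGRP, had 20737 and 22118 with siRNA 1 against 42025 and 40492 with siRNA 2 (si-control 61494, 60762 and 61974). The granule peptide precursor VGF had 34157 and 37405 with siRNA 1 against 54239 and 54504 with siRNA 2 (si-control 100933, 100111 and 101102), and the growth factor gastrin-releasing peptide, GRP, had 4209 and 4099.7 with siRNA 1 against 6472 and 6509 with siRNA 2 (si-control 4675, 4790.4 and 4674). NMU, CALCB and ADCYAP1 also fell, with differences of -0.50, -0.45 and -0.29, while NMB, NPPA and UCN did not pass.

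The wider list of neuroendocrine markers, which shares CALCA and GRP with the hormone list, gave 16 lower, 3 higher and 9 not called of 28, with a median of -0.18. With equal totals it gave 11 lower and 4 higher. The granule proteins SCG2, SYT4, CHGB and SCG3 fell, with differences of -0.97, -0.51, -0.39 and -0.37, and SCG2 had 22993 and 20868 with siRNA 1 against 43756 and 41892 with siRNA 2 (si-control 33110.4, 32832 and 32718). The transcription factors INSM1 and SOX2 did not pass the test. INSM1, a zinc finger factor of neuroendocrine cells, had 17537 and 19049 with siRNA 1 against 17292 and 18158 with siRNA 2 (si-control 13169.5, 12934 and 13507), at 0.04 (adjusted p = 0.596), and SOX2 had 2285 and 2242 with siRNA 1 against 2098 and 2252 with siRNA 2 (si-control 1191, 1152 and 1084), at 0.06 (adjusted p = 0.582). RTN1, CELF3 and SEZ6 rose, by 0.43, 0.30 and 0.20, a count of 1 without siRNA 1 replicate 2 or without siRNA 2 replicate 1. With any 1 of the 4 libraries left out, 12 or 13 markers fell.

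Neuronal and synaptic genes, of which SYP and ELAVL4 are also neuroendocrine markers, split by gene, with 9 higher and 7 lower of 27 and a median of 0.04. ELAVL3, a neuronal RNA-binding protein, had 3878 and 4084 normalized counts with siRNA 1, 2328 and 2065 with siRNA 2, and 2545, 2575 and 2646 in si-control, and DCX, a microtubule protein of young neurons, had 331 and 305 normalized counts with siRNA 1, 184 and 153 with siRNA 2, and 125, 161 and 134 in si-control. SiRNA 1 stood above si-control for each, with differences of 0.86 ± 0.06 (SE), adjusted p = 4.86e-12 and 0.92 ± 0.14 (SE), adjusted p = 1.92e-05. NEFH, a neurofilament chain, averaged 809 with siRNA 1 against 494 with siRNA 2 and rose by 0.71, while GAP43, a growth cone protein, averaged 605 with siRNA 1 against 846 with siRNA 2 and changed by -0.48.

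**Figure D5:**
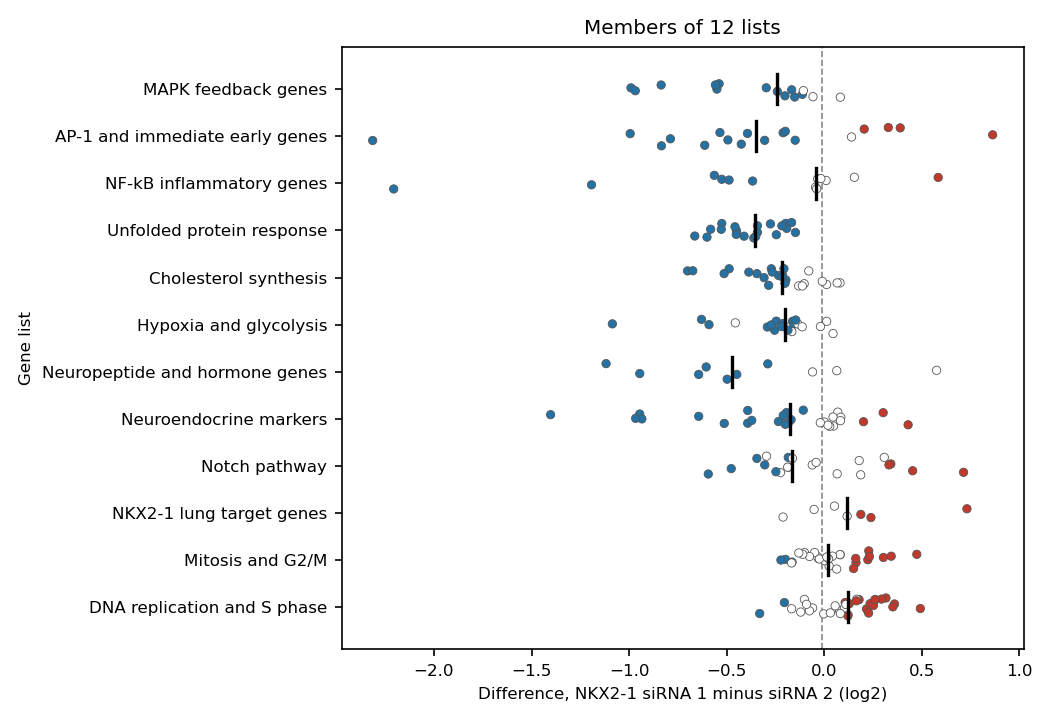
Differences, siRNA 1 minus siRNA 2 (log2), of the members of 12 gene lists; red and blue points were called higher and lower, open points were not called, black bars are list medians, and the dashed line is the median of all members, -0.01. All points of the unfolded protein response list lie below 0, and most of those of DNA replication above it.

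Sterol synthesis and sugar metabolism genes were mostly lower with siRNA 1. Of 24 cholesterol synthesis genes, 16 fell and 0 rose, with a median of -0.22, and with equal totals 12 fell and 1 rose. The sterol oxidase MSMO1 had 940.0 and 886 with siRNA 1 against 1533 and 1383 with siRNA 2 (si-control 1288, 1339 and 1326), and the squalene epoxidase SQLE had 4015 and 4066 with siRNA 1 against 5731 and 5804 with siRNA 2 (si-control 4934, 4972 and 5026). Si-control lay between the reagents for each. Differences were -0.67 ± 0.06 (SE), adjusted p = 3.43e-09 for MSMO1 and -0.51 ± 0.04 (SE), adjusted p = 2.73e-10 for SQLE. CYP51A1, a demethylase of sterol precursors, had 46.2 and 65.4 with siRNA 1 against 117 and 69.1 with siRNA 2 (si-control 52.4, 82.9 and 76.1), and its difference of -0.70 ± 0.26 (SE), adjusted p = 0.0463 lost its call in 8 of 15 alternatives, among them those without replicate 1 of siRNA 1 (adjusted p = 0.358) or of siRNA 2 (0.525). LSS, MVK, MVD and SREBF1 did not pass the test, at 0.08, -0.01, 0.01 and 0.07.

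Of 20 hypoxia and glycolysis genes, 13 fell and 0 rose, with a median of -0.20; the count was 8 with equal totals. NDRG1, which hypoxia induces, had 1687 and 1742 normalized counts with siRNA 1, 3788 and 3499 with siRNA 2, and 4475, 4437 and 4564 in si-control, with a difference of -1.09 ± 0.05 (SE), adjusted p = 2.77e-15. P4HA1, a collagen prolyl hydroxylase, had 398 and 364 with siRNA 1 against 589.5 and 589.9 with siRNA 2 (si-control 669, 671 and 627), and the hexokinase HK2 had 158 and 162 with siRNA 1 against 211 and 276 with siRNA 2 (si-control 378, 418 and 427). For all 3 the order was siRNA 1 lowest, then siRNA 2, then si-control. VEGFA, PDK1 and BNIP3L did not pass, at -0.11, -0.02 and 0.01.

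Genes of DNA replication rose more often than they fell. Of 34, 17 rose, 2 fell and 15 were not called, with a median of 0.12; 20 rose with equal totals, and 11 without siRNA 2 replicate 2. The DNA ligase LIG1 had 1572 and 1676 normalized counts with siRNA 1, 1155 and 1153 with siRNA 2, and 1413, 1408 and 1376 in si-control, and the replicative helicase subunit MCM5 had 2963 and 3219 normalized counts with siRNA 1, 2427 and 2415 with siRNA 2, and 2481, 2542 and 2574 in si-control. Differences were 0.49 ± 0.06 (SE), adjusted p = 4.82e-07 and 0.35 ± 0.06 (SE), adjusted p = 2.67e-05. CCNE1, the cyclin of S phase entry, had 567 and 627 with siRNA 1 against 487 and 443 with siRNA 2 (si-control 520.4, 556 and 569), at 0.36; it was not called without siRNA 2 replicate 2 (adjusted p = 0.0514). The 2 that fell were GINS2 and CDC6, factors for assembling or firing the helicase, with differences of -0.33 and -0.20. Of 30 mitosis genes, 9 rose and 3 fell, with a median of 0.02. BIRC5, the survivin subunit of the chromosomal passenger complex, had 7115 and 7071 with siRNA 1 against 5144 and 5069.8 with siRNA 2 (si-control 5966, 6019 and 5923), and FOXM1, a transcription factor of G2 genes, had 1316 and 1429.8 with siRNA 1 against 1076 and 1086 with siRNA 2 (si-control 959.7, 1003 and 956). The 3 that fell were PRC1, BUB1 and ANLN. Replication-dependent histones gave 1 higher (H2BC18) and 1 lower (H2BC11) of 14, with a median of 0.01, and neither was called without siRNA 1 replicate 1 (adjusted p = 0.0712 and 0.0809).

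Genes of cell survival were called in both directions. Of 15 BCL2 family genes, 2 rose (13.3%) and 4 fell (26.7%), near the shares over all members (14.4% and 18.5%), with a median of -0.02. MCL1, which blocks apoptosis, had 7664 and 7124 normalized counts with siRNA 1, 12983 and 13475 with siRNA 2, and 10244, 10086 and 9997 in si-control. Si-control lay between the reagents, and the difference was -0.84 ± 0.04 (SE), adjusted p = 5.75e-15. BMF, a factor that promotes apoptosis, had 1783 and 1863 with siRNA 1 against 1314 and 1295 with siRNA 2 (si-control 1294, 1306 and 1322), a rise of 0.48 with siRNA 1 alone beyond si-control. Of 18 p53 target genes, which share BAX, BBC3 and PMAIP1 with that list, 6 rose and 5 fell, with a median of 0.06. ZMAT3, an RNA-binding protein, had 1305 and 1247 with siRNA 1 against 853 and 803 with siRNA 2 (si-control 1147, 1199 and 1225). It lay far below si-control with siRNA 2 and just above its range with siRNA 1. SESN1 had 472 and 479.6 with siRNA 1 against 344 and 332 with siRNA 2 (si-control 292, 259.6 and 327). Falls numbered 2 in the BCL2 family with equal totals and without either siRNA 1 library or siRNA 2 replicate 1, and 3 among p53 targets without siRNA 1 replicate 2 or without a filter on low values. BTG2 and GDF15 fell, with differences of -0.48 and -0.34.

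Few lung and gut genes were members. Of 7 lung genes known as NKX2-1 targets or cofactors, 3 rose and 0 fell, with a median of 0.12, which was -0.04 without siRNA 1 replicate 2. FOXA1, a pioneer factor that binds beside NKX2-1 in lung, had 2707 and 2867 with siRNA 1 against 2329.9 and 2392 with siRNA 2 (si-control 1921, 1862 and 2008), at 0.24. SELENBP1, a selenium-binding protein, had 89.7 and 93.2 with siRNA 1 against 48.5 and 61.7 with siRNA 2 (si-control 54.9, 62.1 and 59.2), at 0.73, and LPCAT1, a surfactant lipid enzyme, rose by 0.19. A single one of the 3 rose without siRNA 1 replicate 2 or without siRNA 2 replicate 1, and SELENBP1 was not called there (adjusted p = 0.0965 and 0.15) or without siRNA 1 replicate 1 (0.063). Of 8 gut genes, 1 rose and 2 fell, with a median of 0.04: FOXA3 averaged 97.9 with siRNA 1 against 61.9 with siRNA 2 and rose (adjusted p = 0.0299, and 0.103 to 0.371 without either siRNA 1 library or siRNA 2 replicate 2 and 0.135 without a filter on low values), ONECUT2 averaged 1087 with siRNA 1 against 1449 with siRNA 2 and fell, and TFF3 fell too (-0.21). Lineage transcription factors, which include SOX2 and INSM1, gave 2 higher and 3 lower of 13, with a median of 0.04; SOX4 fell (-0.36) and PAX5 rose (0.28, with an adjusted p of 0.178 without siRNA 1 replicate 2 and of 0.0591 and 0.139 without replicates 1 and 2 of siRNA 2, and 0.172 without a filter on low values), and 1 gene fell without siRNA 1 replicate 1 or without siRNA 2 replicate 1.

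Of 6 non-neuroendocrine markers, 4 fell and 0 rose, with a median of -0.29. TGFBI, a matrix protein, had 169 and 173 with siRNA 1 against 311 and 321 with siRNA 2 (si-control 258, 241 and 233), and PLAU, the urokinase, averaged 126 with siRNA 1 against 177 with siRNA 2 (adjusted p = 0.00534, and 0.0659 without siRNA 1 replicate 2 and 0.0524 without siRNA 2 replicate 2). Epithelial genes gave 1 higher and 5 lower of 12, with a median of -0.16: KRT18, a keratin, had 2789.8 and 3113 with siRNA 1 against 4760.1 and 4734 with siRNA 2 (si-control 5899, 5943 and 5892), and ELF3, an epithelial transcription factor, had 517 and 498 with siRNA 1 against 299.8 and 269 with siRNA 2 (si-control 457, 436 and 461). Differences were -0.69 and 0.83. Mesenchymal genes gave 4 of 14 in each direction, with a median of 0.07, among them FN1 at 0.21 and TGFB2 at -0.35; 1 or 2 rose and 1 to 3 fell with a library left out, and TGFB2 had an adjusted p of 0.121 without siRNA 1 replicate 1 and of 0.284 without siRNA 2 replicate 2, and of 0.0944 without a filter on low values. The list median was -0.03 without siRNA 1 replicate 1. TGFB1, a growth factor, had 1238 and 1333 with siRNA 1 against 1584 and 1487 with siRNA 2 (si-control 1207, 1164 and 1139) and a difference of -0.26 ± 0.07 (SE), adjusted p = 0.00663, with adjusted p-values of 0.0842 and 0.104 without replicate 1 of siRNA 1 or of siRNA 2 and 0.0875 without that filter.

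Notch pathway genes gave 4 higher (19.0%) and 6 lower (28.6%) of 21, against 14.4% and 18.5% of all members, with a median of -0.16. LFNG, a glycosyltransferase that modifies Notch receptors, had 1375 and 1538 with siRNA 1 against 2192 and 2200.4 with siRNA 2 (si-control 1911, 1999 and 2001), at -0.59. ADAM10, which cuts them, fell (-0.48), and so did the ligands JAG1 (-0.31) and JAG2 (-0.35). The target HEYL averaged 107 with siRNA 1 against 65.5 with siRNA 2 and rose (adjusted p = 0.00766, and 0.0911 without siRNA 1 replicate 2 and 0.168 without siRNA 2 replicate 2), as did DLK1 at 611 with siRNA 1 against 447 with siRNA 2, an atypical ligand. HEYL averaged 106 in si-control, close to siRNA 1, and siRNA 2 alone lay below si-control. Of 8 YAP/TAZ target and cofactor genes, 2 rose and 0 fell, with a median of 0.15. AMOTL2, which binds YAP, had 769 and 779 with siRNA 1 against 397 and 406 with siRNA 2 (si-control 441, 451 and 426), and PTPN14, a phosphatase that does so too, had 271 and 303 with siRNA 1 against 181 and 175 with siRNA 2 (si-control 252, 244 and 273).

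Among lists that bear on how cells sense and use small RNAs, no interferon-stimulated gene rose with siRNA 1. These genes, which double-stranded RNA can induce, gave 0 higher and 4 lower of 15, with a median of -0.15; BST2 averaged 2240.0 with siRNA 1 against 2732 with siRNA 2 and ISG15 695 with siRNA 1 against 848 with siRNA 2, and USP18 fell too. The falls numbered 2 with equal totals, without a filter on low values and without siRNA 1 replicate 2, and 1 without siRNA 2 replicate 2, where ISG15 had an adjusted p of 0.0611. IFIT1, an early gene of this response, averaged 71.8 with siRNA 1 against 79.6 with siRNA 2 and did not pass. Class I antigen presentation gave 0 higher and 4 lower of 10, with a median of -0.18, led by B2M at 5489 with siRNA 1 against 7208 with siRNA 2 and by TAPBP, a chaperone of class I molecules, at 1319 with siRNA 1 against 1664 with siRNA 2. Of 16 genes of the RNA interference machinery, 3 rose and 4 fell, with a median of -0.02, and 2 fell with equal totals and without siRNA 2 replicate 1. DICER1, the nuclease that makes small RNAs, had 1272 and 1157 normalized counts with siRNA 1, 1694 and 1798 with siRNA 2, and 2069, 2064 and 2100.1 in si-control, and TNRC6A, a partner of Argonaute, had 1268 and 1299 normalized counts with siRNA 1, 821 and 961 with siRNA 2, and 1114, 1020.0 and 1068 in si-control. Differences were -0.52 ± 0.06 (SE), adjusted p = 5.6e-08 and 0.53 ± 0.07 (SE), adjusted p = 6.97e-07.

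Calls among abundant housekeeping transcripts depended on the scaling and the filter. Of 13 mitochondrially encoded mRNAs, 10 fell and 0 rose, with a median of -0.25, and after quantile normalization 1 fell and 1 rose, while 2 fell without a filter on low values. MT-CYB and MT-ND1, subunits of respiratory complexes III and I, had differences of -0.38 ± 0.06 (SE), adjusted p = 2.03e-05 and -0.28 ± 0.05 (SE), adjusted p = 0.000232, and without that filter neither was called (adjusted p = 0.0555 and 0.0935). MT-ND1 was also not called after quantile normalization, where its difference was 0.0. Among ribosomal protein genes, 15 of 28 were lower and 0 higher, with a median of -0.11; 7 fell and 1 rose with equal totals, and 5 fell and 5 rose after quantile normalization. RPL15 averaged 13529.6 with siRNA 1 against 17492 with siRNA 2 and RPS14 8256 with siRNA 1 against 10113 with siRNA 2, with differences of -0.37 and -0.29. Without siRNA 2 replicate 1, 6 of the mitochondrial mRNAs and 9 of the ribosomal genes fell. The part of these transcripts in the other falls was not tested.

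Of the markers of other cells, 3 of 10 fibroblast markers and 1 of 13 blood and endothelial markers were members. FAP averaged 175 with siRNA 1 against 297 with siRNA 2 and LUM 68.1 with siRNA 1 against 100.3 with siRNA 2, both called lower with siRNA 1. Without a filter on low values neither was called (adjusted p = 0.102 for FAP and 0.23 for LUM), against 0.00184 and 0.0304 with it. LUM was not called by DESeq2 (0.0831) or edgeR (0.0706), with equal totals (0.0535), or without siRNA 1 replicate 1 or either siRNA 2 library (0.0855 to 0.419); PDGFRA averaged 142 with siRNA 1 against 125 with siRNA 2 and did not pass, so that the list had 2 lower and 0 higher with a median of -0.58. The single blood and endothelial member was PECAM1, at -1.61. Summed over each whole list, fibroblast markers came to 406 and 460.0 normalized counts with siRNA 1, 514 and 576 with siRNA 2, and 534 to 605 in si-control, and blood and endothelial markers to 187 and 199 with siRNA 1, 479 and 513 with siRNA 2, and 388 to 408 in si-control, mostly PECAM1. Their part in other results was not tested.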

How the data were processed

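Poly(A) RNA of SHP77 cells was sequenced as read pairs of 150 bases from 500 ng of RNA, per the labels' protocols. The submitters' processing notes name cutadapt 2.5, STAR 2.5.2b, DESeq2 and build hg38; the DESeq2 version, annotation, counting tool and use of strand are not given in the sources used here. The authors deposited a signal per gene and library, a count divided by a library size factor; 100% of values were whole multiples of a step within 0.05 reads, which gave recovered reads. Of 34791 features, 38 non-human ones and 11 pseudoautosomal copies were left out, and 77.0% of gene IDs matched a symbol. Positions and promoters came from RefSeq GRCh38.p14.

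In R 4.3.3, limma 3.58.1 (eBayes with trend) was fitted to log2(normalized count + 1), with a pseudocount of 1, over 11 libraries in 5 groups (6 residual degrees of freedom), for 16750 genes with a mean of at least 10. Differences on this scale, siRNA 1 minus siRNA 2, understate those of low genes. Tests were two-sided with Benjamini-Hochberg adjustment over all genes tested and a threshold of 0.05. The fit was tested on simulated data. Their spread was taken from these same libraries, so that test cannot show whether the replicates are technical. No set test was run; lists are described by counts and medians. Alternatives were pseudocounts of 0.5 and 5, other filters, other scalings, fewer libraries, a replicate block, thinning of the deepest library, and edgeR 4.0.16 and DESeq2 1.42.0 on recovered reads. The replicates of a reagent were not copies: chi-square of their reads over its degrees of freedom was 6.04 for siRNA 1 and 2.29 for siRNA 2. This ratio grows with depth, and siRNA 1 has the deepest library, so it does not rank the reagents by scatter. On the log2 scale the replicates correlated at 0.9967 for siRNA 1 and 0.9965 for siRNA 2. No interval for counting error is given, since values are compared over libraries.

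Members and lists were chosen with earlier results of these data known. Some genes of the rule and lists are not reported here. Genes named by rule were NKX2-1, NEUROD1, POU2F3 (not in the table used here), YAP1 and SOX2; the 10 largest differences in each direction among called members with symbols and no overlap; up to 3 in each direction with the reagents on opposite sides of si-control; up to 2 called members a list by size; and 2 genes on each side of the mean of 50. Other genes of the lists were named after their values were seen.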

Additional observations from a re-analysis of the deposited data

How the results depend on the processing

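Of 78 genes named by rule, 19 lost their call under at least 1 of 15 alternatives, and no sign was reversed. On recovered reads, edgeR called 2192 members higher and 2409 lower with siRNA 1 and DESeq2 1794 and 2146; limma's 4289 calls shared 4210 and 3926 with them in the same direction. Without a filter on low values 1240 members were higher and 1672 lower; the cause was not tested. Fitted on the 4 NKX2-1 siRNA libraries alone, 2088 were higher and 2607 lower, and with the deepest library thinned 1852 and 2418. With equal totals, 8 hypoxia and glycolysis genes fell; the cause was not tested. List medians near 0 turned positive there, at 0.05 for the integrated stress response, 0.04 for RNA interference, 0.04 for the BCL2 family and 0.02 for NF-kB. With 1 library left out, the medians of the lung (-0.04), mesenchymal (-0.03), mitosis (-0.01), histone (-0.02) and neuronal lists turned negative. Leaving out each of the 4 libraries in turn gave 1230 to 1529 members higher and 1661 to 2037 lower, 7 to 10 MAPK feedback genes lower, 8 to 11 immediate early genes lower and 11 to 15 DNA replication genes higher; these fits rest on fewer libraries. Deviations of the replicate 1 libraries of the reagents from their group means correlated at -0.0212. A single pair of libraries cannot show whether the replicate numbers pair the libraries. With a replicate block, 1663 members were higher and 2190 lower, and NKX2-1 differed by 0.31. For genes under 100 normalized counts, depth and the 2 libraries a reagent limit which differences can be called.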

Other observations

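Members past 2-fold that no list holds, chosen after their values were seen, include genes of growth factor and guidance signals, given here in normalized counts per library. INHA, the inhibin alpha subunit, which like FST opposes activin, had 259 and 323 with siRNA 1 against 145 and 133 with siRNA 2 (si-control 229.6, 217 and 235) and a log2 difference of 1.05 ± 0.16 (SE), adjusted p = 1.62e-05 by limma, opposite in sign to that of FST. The BMP-related transcription factor ATOH8 had 592 and 646 with siRNA 1 against 302 and 257 with siRNA 2 (si-control 483, 453 and 482), the semaphorin SEMA6B had 503 and 554 with siRNA 1 against 227 and 255 with siRNA 2 (si-control 319, 359 and 364), and the cilium receptor GPR161 had 275 and 299 with siRNA 1 against 123 and 128 with siRNA 2 (si-control 102, 95.1 and 117). Si-control lay between the reagents for INHA, ATOH8 and SEMA6B, and below either reagent for GPR161. The log2 differences, siRNA 1 minus siRNA 2, were 1.15 for ATOH8, 1.13 for SEMA6B and 1.18 for GPR161.

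Several membrane and secreted proteins fell past 2-fold. SLC16A7, a monocarboxylate transporter, had 534 and 476 with siRNA 1 against 1347 and 1396 with siRNA 2 (si-control 1206, 1255 and 1221), and TFPI, an inhibitor of the coagulation pathway, had 247 and 216 with siRNA 1 against 551 and 543 with siRNA 2 (si-control 477, 436 and 410.2). CHRNA1, a subunit of the muscle acetylcholine receptor, had 573 and 557 with siRNA 1 against 1289.5 and 1198 with siRNA 2 (si-control 1310.3, 1411 and 1228). Si-control lay between the reagents for SLC16A7, TFPI and the serpin SERPINI1. For CHRNA1 both siRNA 1 libraries lay below si-control, and so did siRNA 2 replicate 2. For RGS4, which shortens G protein signals, siRNA 2 alone lay above si-control. RGS4 had 289 and 255 with siRNA 1 against 650.4 and 629 with siRNA 2 (si-control 253, 305 and 300.2) and SERPINI1 had 2197 and 2041 with siRNA 1 against 4819.8 and 5079.7 with siRNA 2 (si-control 2941, 2864 and 2922). The log2 differences, each past the threshold, were -1.44 for SLC16A7, -1.24 for TFPI, -1.14 for CHRNA1, -1.24 for RGS4 and -1.22 for SERPINI1.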
